A study of Mus musculus with 24 samples.

Results

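The genes described here encode 8 RNA-binding proteins that shorten the life of inflammatory messenger RNAs. They were taken by name as the tristetraprolin family (Zfp36, Zfp36l1 and Zfp36l2), the regnases (Zc3h12a, Zc3h12c and Zc3h12d) and the roquins (Rc3h1 and Rc3h2). All 8 were found among the 52636 gene models of the deposited files, and all 8 passed the filter on low counts that left 14435 genes to test. RNA had been sequenced from cultured mouse macrophages that were differentiated from bone marrow (BMDMs). Cells were wild type (WT) or carried a knockout of Ninj1 (KO), the gene of a membrane protein that ruptures the plasma membrane in lytic cell death. Cells of each genotype were kept in media or stimulated with Pam3, the usual short name of a synthetic lipopeptide ligand of TLR1 and TLR2. This gave 4 groups of 6 libraries, called here WT in media, KO in media, WT after Pam3 and KO after Pam3, and each value is a level of polyA RNA, not of protein. The WT libraries carry the strain label C57BL/6. The strain and age of the KO mice, the part of Ninj1 that was deleted, and how much Pam3 was given for how long are not given in these labels. Nothing in the labels tells whether replicates are separate mice, separate cultures or repeats of 1 culture, so p-values reflect only how these samples vary, in part perhaps technically.

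Tristetraprolin, the product of Zfp36, and its relatives hold paired zinc fingers that bind AU-rich elements in the 3′ untranslated region (3′ UTR) of cytokine mRNAs and bring in the CCR4-NOT deadenylase. Regnase-1, the product of Zc3h12a, is an endonuclease that cuts stem-loops in such mRNAs together with the helicase UPF1, and the products of Zc3h12c and Zc3h12d are related nucleases. Roquin-1 and roquin-2, the products of Rc3h1 and Rc3h2, bind stem-loops of an overlapping set of mRNAs through the ROQ domain and also recruit CCR4-NOT. In macrophages these proteins limit the output of Tnf, Il6 and many chemokines after Toll-like receptor stimulation, and several are themselves encoded by mRNAs that the same proteins bind.

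The 3 genes of the tristetraprolin family and both roquin genes carry the 9-base core that the tristetraprolin zinc fingers bind best in their own 3′ UTR. The sequences below are stretches of the GENCODE M21 transcripts on GRCm38, 5′ to 3′ in DNA letters, with the core TTATTTATT in capitals. They are shown because these members hold an element of the kind that other members' proteins bind. Of the 5 members called higher after Pam3, Zfp36 and both roquin genes hold the core, but the direction of the roquin genes depended on how libraries were scaled. Of the 3 members that fell, Zfp36l1 and Zfp36l2 hold it. For Zc3h12c, which lacked the core, both copies of the shorter 7-base form TATTTAT are shown in capitals.
Zfp36: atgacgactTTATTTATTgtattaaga
Zfp36l1: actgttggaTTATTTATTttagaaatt
Zfp36l2: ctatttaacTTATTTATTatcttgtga
Rc3h1: ctttactcaTTATTTATTgagatgagg
Rc3h2: aaagacattTTATTTATTttactctgt
Zc3h12c, first copy: ctataatcatTATTTATaggaacaaag
Zc3h12c, second copy: gacagtaataTATTTATaaaacaata

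The core starts at base 589 of the 774 bases of the Zfp36 3′ UTR, at base 1404 of 1835 in Zfp36l1 and at base 821 of 1822 in Zfp36l2. It starts at base 2256 of 7181 in Rc3h1 and at base 1928 of 5160 in Rc3h2. Shares were taken among 3′ UTRs of all genes within 20% of the same length, the member itself included. Of these, 4.43% held the core at the length of Zfp36 and 9.63% at the length of Zfp36l1 and Zfp36l2. At the length of Rc3h1 the share was 27.3%, and at the length of Rc3h2 it was 22.3%. The core is therefore less common at the lengths of the tristetraprolin genes than at those of the roquin genes, whose 3′ UTRs are longer. Each tristetraprolin gene had 3 copies of TATTTAT, a number reached by 1.22% of 3′ UTRs of the length of Zfp36 and by 4.02% at the length of Zfp36l1 and Zfp36l2. Rc3h2 also had 3 copies, which 18.1% reached at its length, and Rc3h1 had 2, which 46.6% reached. In Zc3h12c the 2 copies stand at bases 527 and 3406 of 3421, and 25.4% of 3′ UTRs of that length had as many. The 3′ UTRs of Zc3h12a (856 bases) and Zc3h12d (2327 bases) held neither form. Every copy of the core contains the shorter form, only the transcribed strand was searched, and a match is a description of letters and not of binding.

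Zfp36 also has a CArG box, the motif of serum response factor, in the 250 bases before its RefSeq start (GRCm38.p6, chr7:28379229-28379478, minus strand), here in capitals.
Zfp36 promoter: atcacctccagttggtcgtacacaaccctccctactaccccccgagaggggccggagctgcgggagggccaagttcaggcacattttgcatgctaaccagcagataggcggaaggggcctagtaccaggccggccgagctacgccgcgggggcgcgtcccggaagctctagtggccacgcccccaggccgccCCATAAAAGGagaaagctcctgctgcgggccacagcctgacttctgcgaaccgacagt

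The box CCATAAAAGG begins 58 bases before the start. The window precedes the RefSeq start but lies within the 1 exon block that GENCODE M21 gives Zfp36 (28376784 to 28380253). On either strand, a CArG box was found in 1.47% of all 32851 promoter windows of 250 bases. The AP-1 form TGANTCA was found in the windows of Zfp36l1, 129 bases before the start, and Rc3h1, 133 bases before it, and in 6.75% of all windows. The NF-kB consensus, found in 3.90% of all windows, and the cyclic AMP element TGACGTCA, found in 1.55%, were in none of the members' windows. Of the 8 members, 7 matched the promoter table, which gave 2 windows for Zc3h12c.

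Libraries held 31302011 to 40663152 counted reads. Ninj1 itself was at 289 to 325 CPM (counts scaled to adjusted library sizes) in WT in media and 151 to 179 in KO in media, and at 646 to 1145 in WT after Pam3 and 409 to 479 in KO after Pam3. The knockout groups thus lay below the WT groups in every library but kept reads over the gene. WT libraries are labelled male and KO libraries give no sex, yet Xist was at 233 to 796 CPM in all 24 libraries and 4 Y-linked genes had 0 to 4 counts per library, which goes against that label. Macrophage markers summed to between 30246 and 45612 CPM per library, and none of the 12 was below 1 CPM throughout. Of 11 lymphocyte markers, 6 were below 1 CPM in all 24 libraries, among them Cd3e and Cd79a, and of 11 granulocyte markers Ly6g and Cebpe were.

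Replicate 5 of WT after Pam3, numbered in order of deposition, stood apart from the other 5 libraries of its group, and long transcripts were low in it. Among tested genes with exons of 6337 nt or more in all (3604 genes), its median log2 difference from the mean of the other 5 was -0.31. Among genes with exons of up to 2224 nt the median was 0.26. The other 5 libraries, each compared with the rest, had medians of -0.09 to -0.06 for the shortest genes and 0.04 to 0.07 for the longest. Members with long exons were low in this library: Zc3h12c (6845 nt) differed by -1.27 on the log2 scale, Rc3h1 (11308 nt) by -1.07 and Rc3h2 (19624 nt) by -0.88. Shorter members differed less, from -0.49 for Zfp36l1 to 0.01 for Zfp36. The share of the 10 most abundant genes was 12.2% in this library, the highest of its group, and the part of these library properties in any result was not tested. For members, log2 values that rest on it are given with and without it.

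**Figure D1:**
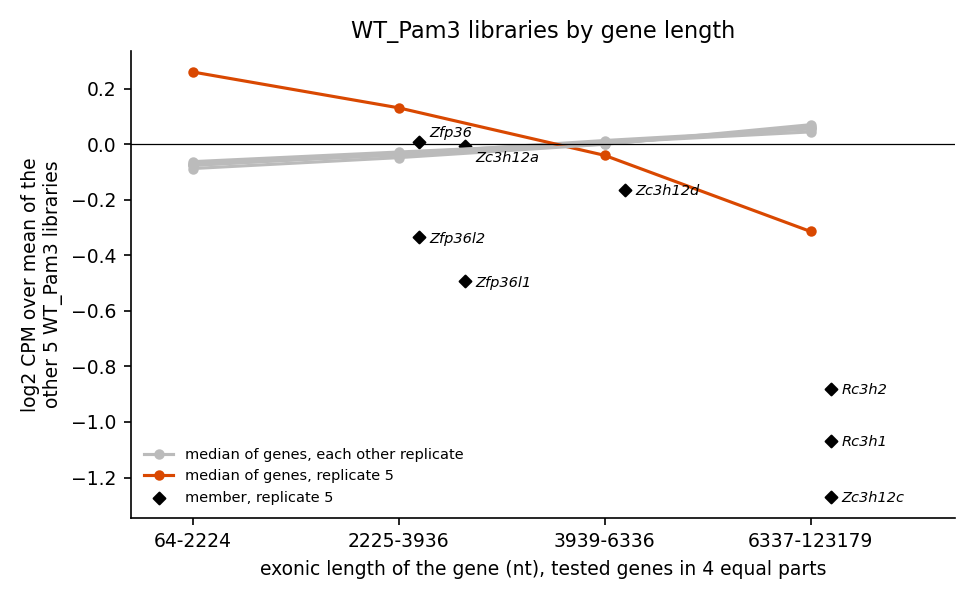
Median log2 difference of each WT library after Pam3 from the other 5 libraries of its group (vertical axis), for tested genes in 4 bins of total exonic length from shortest to longest (horizontal axis). Replicate 5 runs from 0.26 in the shortest bin to -0.31 in the longest, and the other 5 libraries stay between -0.09 and 0.07.

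In resting WT macrophages the tristetraprolin family was the most abundant of the 3 families, and Zfp36l2 was its leading member. Levels between genes are compared in the authors' RPKM, which are reads scaled by gene length and library size and adjusted by a size factor. Zfp36l2 stood at 57.8 RPKM ± 1.65 (SD, n = 6), Zfp36 at 44.0 ± 0.996 and Zfp36l1 at 34.8 RPKM. Below them came Zc3h12d at 17.3 RPKM, Zc3h12a at 8.82, Rc3h1 at 6.47, Rc3h2 at 4.05 and Zc3h12c at 2.05. No 2 neighbours in this order overlapped between their libraries. The order in KO in media was the same, again without overlap between neighbours. The length behind the authors' RPKM of Rc3h2 was 0.457 of its exonic length in GENCODE M21, relative to the median member, so on the full length its RPKM would be 2.19-fold lower. For the other 7 members the ratio was 0.956 to 1. On the GENCODE M21 lengths, a rescaling added after these values were seen, Rc3h2 would be the lowest of the 8 in media, at 1.85 RPKM in WT beside 2.05 for Zc3h12c and at 1.72 beside 1.99 in KO. The libraries of those 2 genes would then overlap in both genotypes.

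After Pam3 the order was rearranged, and Zfp36, Zc3h12a and Zc3h12c led it. In WT after Pam3, Zfp36 stood at 259 RPKM, Zc3h12a at 143 and Zc3h12c at 60.9. Zfp36l2 had 10.2 RPKM, Rc3h1 8.81, Rc3h2 4.997, Zfp36l1 3.16 and Zc3h12d 2.02. The libraries of Zfp36l2 and Rc3h1 overlapped, as did those of Rc3h1 and Rc3h2, and those of Rc3h2 and Zfp36l1. The order in KO after Pam3 was the same, with overlaps between Zfp36l2 and Rc3h1 and between Zfp36l1 and Zc3h12d. On the authors' lengths, Zfp36l1 and Zc3h12d, the third and the fourth in media, were thus the lowest of the 8 after Pam3. On the GENCODE M21 lengths Rc3h2 would lie between them, at 2.29 RPKM in WT and 2.46 in KO, and Zc3h12d would stay the lowest by its mean, with libraries that overlap those of Rc3h2.

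**Figure D2:**
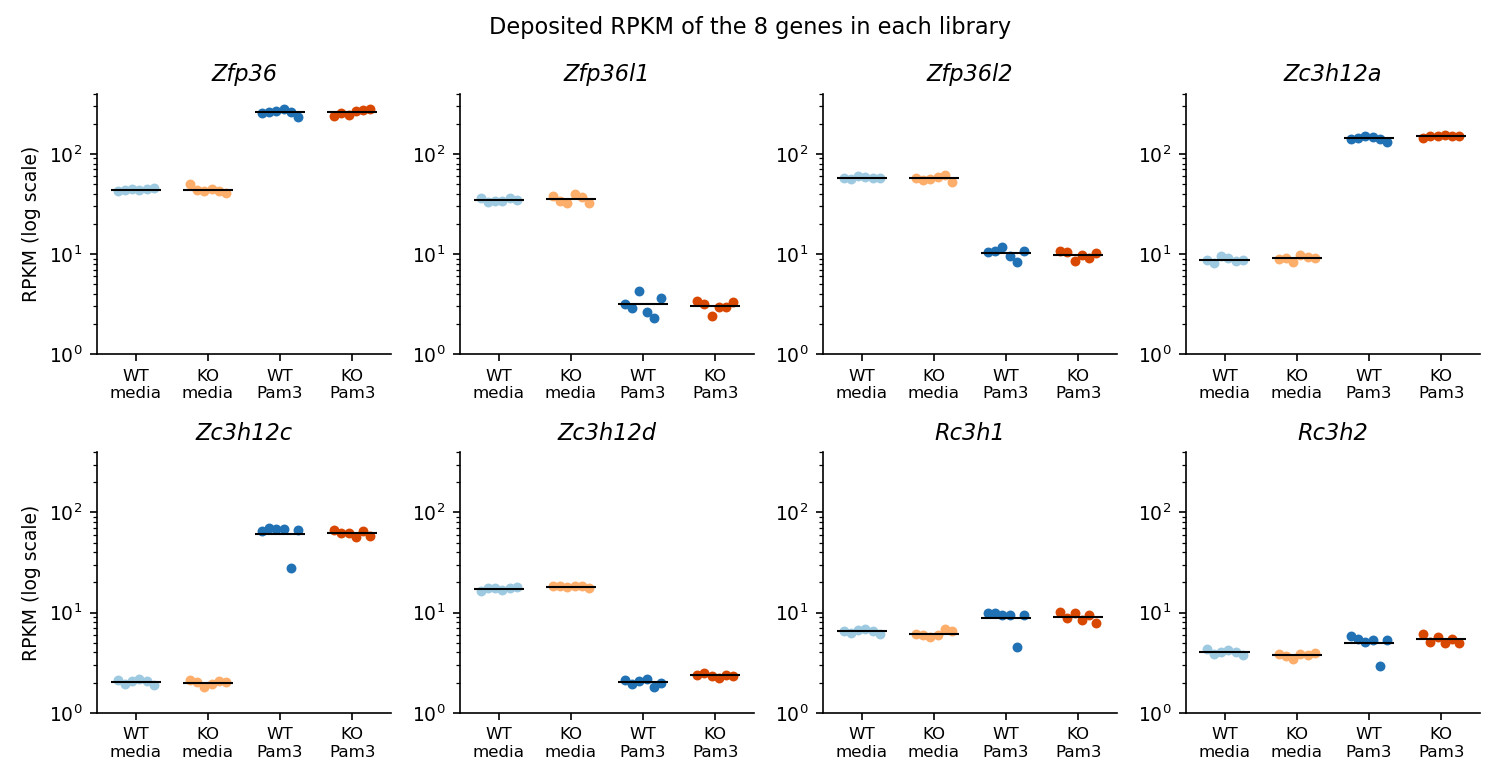
RPKM of the 8 members in each of the 24 libraries, on a log10 axis, with the 4 groups side by side for each gene and a bar for the group mean. Zfp36, Zc3h12a and Zc3h12c lie higher after Pam3 than in media, Zfp36l1, Zfp36l2 and Zc3h12d lower, and Zc3h12c, Rc3h1 and Rc3h2 each have 1 low WT library after Pam3.

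Zfp36, which encodes tristetraprolin, came to hold nearly all RNA of its family. In WT it held 32.2% ± 0.575 (SD, n = 6) of the summed RPKM of the 3 genes in media and 95.1% ± 0.760 after Pam3. Zfp36l2 went from 42.3% to 3.77% and Zfp36l1 from 25.5% to 1.16%. The sum itself was 137 RPKM in media and 273 after Pam3. In KO the share of Zfp36 was 32.2% ± 1.43 in media and 95.3% ± 0.544 after Pam3. No library of either genotype lay between 34.2% and 94.2%.

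The regnases exchanged places in the same way. Zc3h12d held 61.5% ± 1.61 of the family's RPKM in WT in media and 0.983% ± 0.0565 after Pam3. Zc3h12a rose from 31.3% ± 1.28 to 69.8% ± 6.39, and Zc3h12c from 7.26% to 29.2%. The summed level of the 3 genes was 28.2 RPKM in WT in media and 206 after Pam3, and in KO it was 29.2 and 213. The highest Zc3h12a share, 82.7%, was that of replicate 5 of WT after Pam3, where Zc3h12c was low. In KO after Pam3 the shares were 69.9% for Zc3h12a, 29.0% for Zc3h12c and 1.10% for Zc3h12d. Among the roquins Rc3h1 was at 61.5% of the pair in WT in media, 63.6% in WT after Pam3, 62.0% in KO in media and 62.8% in KO after Pam3. On the GENCODE M21 lengths these shares would be 77.3%, 78.8%, 77.6% and 78.2%. Shares describe RPKM within a family and were not tested. Total RPKM per library was 274214 to 288513 in media and 409505 to 494309 after Pam3, so sums across treatments also carry the scaling of the authors.

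**Figure D3:**
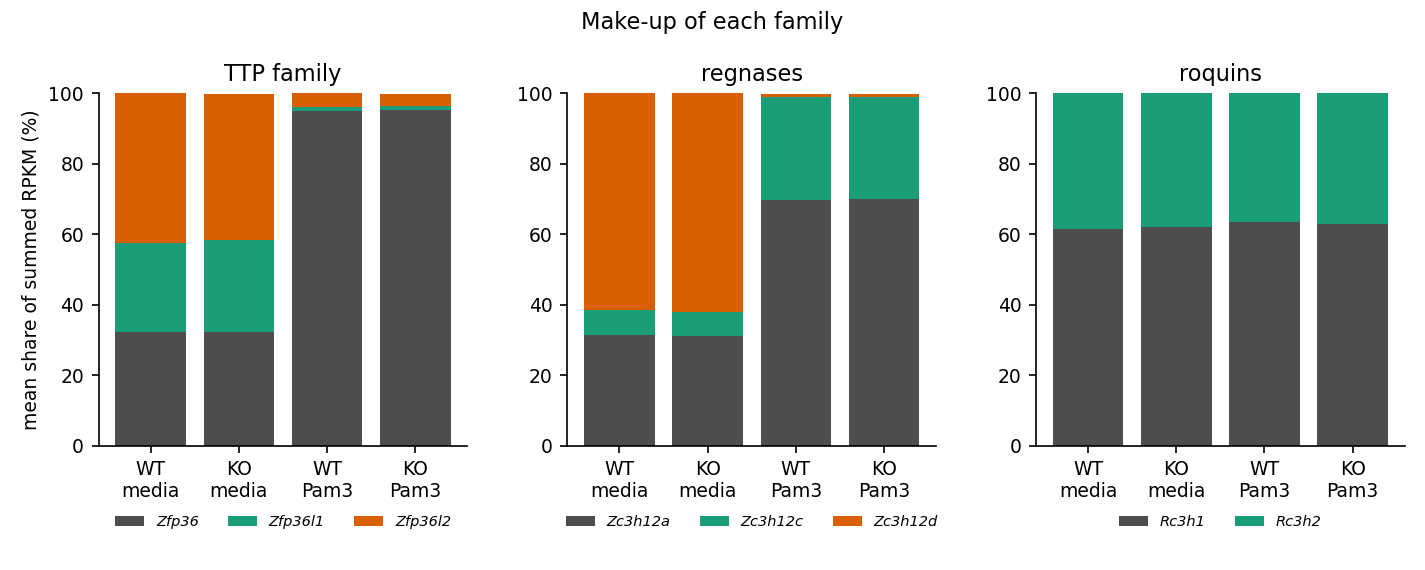
Share of summed RPKM held by each member of the tristetraprolin, regnase and roquin families (vertical axis, percent) in the 4 groups, as stacked means of 6 libraries. Zfp36 goes from 32.2% to 95.1% of its family in WT, Zc3h12d from 61.5% to 0.983% of the regnases, and Rc3h1 lies between 61.5% and 63.6% of the roquins on the authors' gene lengths.

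The response to Pam3 was next tested gene by gene, with edgeR's quasi-likelihood test on the deposited counts and Benjamini-Hochberg adjustment over all 14435 genes, a call being an adjusted p under 0.05. All 8 members were called in each genotype, 5 higher and 3 lower. Since 84.8% of all tested genes were called in WT (40.6% higher, 44.2% lower) and 85% in KO (40.2% and 44.8%), this count alone does not set the members apart. The size of the change was the larger contrast. In WT 3 members were at least 4-fold higher and 3 at least 4-fold lower, against 7.6% and 11% of all tested genes, and in KO the same counts stood against 7.28% and 11.1%. The groups did not overlap for 3 higher and 3 lower members in WT (32.5% and 36.4% of all genes) and for 5 higher and 3 lower members in KO (36% and 39.7%). In such bulk samples, fewer cells of a type and less RNA per cell cannot be told apart.

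Zfp36 (ENSMUSG00000044786, chromosome 7, 28376784 to 28380253, minus strand, GRCm38) rose about as much in both genotypes. Its lowest, median and highest libraries were at 167, 171 and 175 CPM in WT in media and at 889, 1001 and 1058 CPM after Pam3. In KO they were at 160, 168 and 194 CPM in media and at 909.99, 1003 and 1068 CPM after Pam3. Every stimulated library lay above every library in media. The fitted log2 fold change was 2.53 (SE 0.04996, 5.78-fold, 95% interval 5.38 to 6.21) in WT and 2.53 (5.79-fold) in KO, with edgeR adjusted p of 1.1e-25 and 1.0e-25. A predicted gene on the other strand, Gm44710, overlaps 125 nt of its exons and had 832 counts over all libraries, and the library kit did not mark strand.

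Its relatives Zfp36l1 and Zfp36l2, which encode proteins of the same zinc finger class with known roles in cell growth and in blood cell development, fell. Zfp36l1 (ENSMUSG00000021127, chromosome 12, 80107754 to 80113013, minus strand) was at 110, 116 and 123 CPM in WT in media and at 7.63, 9.96 and 14.1 CPM after Pam3 (lowest, median and highest library). In KO it was at 109, 120.03 and 133 CPM in media and at 7.93, 10.2 and 11.3 CPM after Pam3. This was the largest fall among the 8 members, 11.2-fold in WT (log2 -3.49, SE 0.103) and 11.9-fold in KO (log2 -3.58). Zfp36l2 (ENSMUSG00000045817, chromosome 17, 84183931 to 84187947, minus strand) was at 222, 228 and 243 CPM in WT in media and at 32.6, 40.9 and 46.1 CPM after Pam3. In KO it went from 211, 225 and 246 CPM to 33.2, 38.9 and 42.0 CPM. The fall was 5.76-fold in WT (log2 -2.53, SE 0.0658) and 5.92-fold in KO (log2 -2.57). For both genes every stimulated library lay below every library in media, and the largest edgeR adjusted p of these 4 values was 1.0e-21. On the other strand Gm26669 overlaps 1672 of the 2990 nt of Zfp36l1 exons and had 19 counts over all libraries. AC132455.1, which the deposited files do not hold, overlaps 105 nt of Zfp36l2 exons on the other strand. The part of these overlaps in the levels was not tested.

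Zc3h12a (ENSMUSG00000042677, chromosome 4, 125118423 to 125127840, minus strand), the regnase-1 gene, rose in all stimulated libraries. It was at 25.4, 26.98 and 29.7 CPM in WT in media and at 401, 434 and 457 CPM after Pam3. The KO libraries were at 26.0, 28.4 and 30.6 CPM in media and at 434, 456 and 467 CPM after Pam3. The rise was 15.9-fold in WT (log2 3.99, SE 0.0454, 95% interval 14.9 to 16.95) and 16.1-fold in KO (log2 4.01), at edgeR adjusted p of 9.0e-31 and 8.1e-31.

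Zc3h12c (ENSMUSG00000035164, chromosome 9, 52111344 to 52168572, minus strand), which encodes the related nuclease regnase-3, had the largest rise of the 8. From 14.3, 16.1 and 16.7 CPM in WT in media it went to 211, 508 and 526 CPM after Pam3. From 13.8, 15.6 and 16.4 CPM in KO in media it went to 431, 471 and 506 CPM. The lowest of the 12 stimulated libraries was still above all 12 libraries in media. The fitted rise was 29.2-fold in WT (log2 4.87, SE 0.152) and 30.4-fold in KO (log2 4.92), at edgeR adjusted p of 3.9e-21 and 3.2e-21. The lowest WT value is that of replicate 5, and without that library the log2 fold change in WT was 5.02. Mir6244 on the other strand overlaps 117 nt of the exons of Zc3h12c and had 1 count over all libraries.

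Zc3h12d (ENSMUSG00000039981, chromosome 10, 7832470 to 7870396, plus strand), a regnase gene first described in lymphoma and known mainly from lymphocytes, fell. It was at 75.1, 81.2 and 81.9 CPM in WT in media and at 8.21, 9.12 and 9.74 CPM after Pam3. In KO it was at 81.5, 84.0 and 85.6 CPM in media and at 10.2, 10.6 and 11.4 CPM after Pam3. The fall was 8.76-fold in WT (log2 -3.13, SE 0.0413) and 7.86-fold in KO (log2 -2.97, SE 0.0404), at edgeR adjusted p of 1.7e-29 and 3.3e-29. The summed level of the 11 lymphocyte markers also fell, from 43.8 to 49.7 CPM in WT in media to 16.02 to 19.3 CPM after Pam3. In KO the sum went from 41.02 to 45.8 CPM to 13.0 to 15.5 CPM. In all 24 libraries 6 of the 11 markers were below 1 CPM. The fall was not shared by the whole list. Of the 6 lymphocyte markers tested, 3 were called higher and 3 lower in each genotype (median log2 -0.07 in WT, -0.24 in KO). In WT the summed dendritic cell markers (9 genes) went from 124 to 143 CPM in media to 325 to 564 CPM after Pam3. Of the 7 tested, however, 2 were called higher and 4 lower in WT (median log2 -0.53), and 2 and 3 in KO (-0.44). The summed stromal and endothelial markers (11 genes) went from 52.2 to 62.0 CPM to 133 to 201 CPM in WT. Of the 10 tested, 3 were called higher and 1 lower in WT (median 0.01), and 3 and 3 in KO (-0.18). Such sums need not follow most genes of a list. The part of these markers in the members' changes was not tested.

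The roquin genes changed least, and their direction depended on how libraries were scaled. Rc3h1 (ENSMUSG00000040423, chromosome 1, 160906418 to 160974978, plus strand) was at 75.5, 80.4 and 84.5 CPM in WT in media and at 55.5, 115 and 121 CPM after Pam3. In KO it was at 69.9, 75.0 and 84.0 CPM in media and at 96.3, 111 and 122 CPM after Pam3. Rc3h2 (ENSMUSG00000075376, chromosome 2, 37370069 to 37422903, minus strand) was at 37.2, 41.03 and 44.1 CPM in WT in media and at 28.8, 52.6 and 57.5 CPM after Pam3, and in KO at 34.5, 38.5 and 40.2 CPM in media and at 48.9, 51.8 and 60.6 CPM after Pam3. In KO the groups did not overlap for either gene. In WT 5 of 6 stimulated libraries lay above all libraries in media, and replicate 5 lay below all of them.

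Under TMM scaling, which assumes that most genes do not change, Rc3h1 rose by 0.42 on the log2 scale in WT (SE 0.114, edgeR adjusted p = 0.00164) and by 0.53 in KO (adjusted p = 0.000119). Rc3h2 rose by 0.27 in WT (SE 0.0999, edgeR adjusted p = 0.0134) and by 0.48 in KO (adjusted p = 7.4e-05). Without replicate 5 of WT after Pam3 the WT values were 0.55 and 0.39. Upper-quartile scaling ended both WT calls, at 0.22 for Rc3h1 (edgeR adjusted p = 0.0690) and 0.08 for Rc3h2 (adjusted p = 0.457), and a fit of the 2 compared groups alone ended that of Rc3h2 (0.27, adjusted p = 0.0562). Scaling to library size alone gave -0.11 for Rc3h1 (edgeR adjusted p = 0.380) and -0.25 for Rc3h2 (adjusted p = 0.0242) in WT, and 0.05 and 0.00 in KO. That scaling put the median of all tested genes at -0.58 in WT and -0.56 in KO, where TMM had it at -0.05 and -0.07. A change of scaling shifts all genes by about the same amount. The place of both roquin genes above the median of all genes is therefore the same by construction under either scaling. The other 6 members kept their direction and their call under both.

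**Figure D4:**
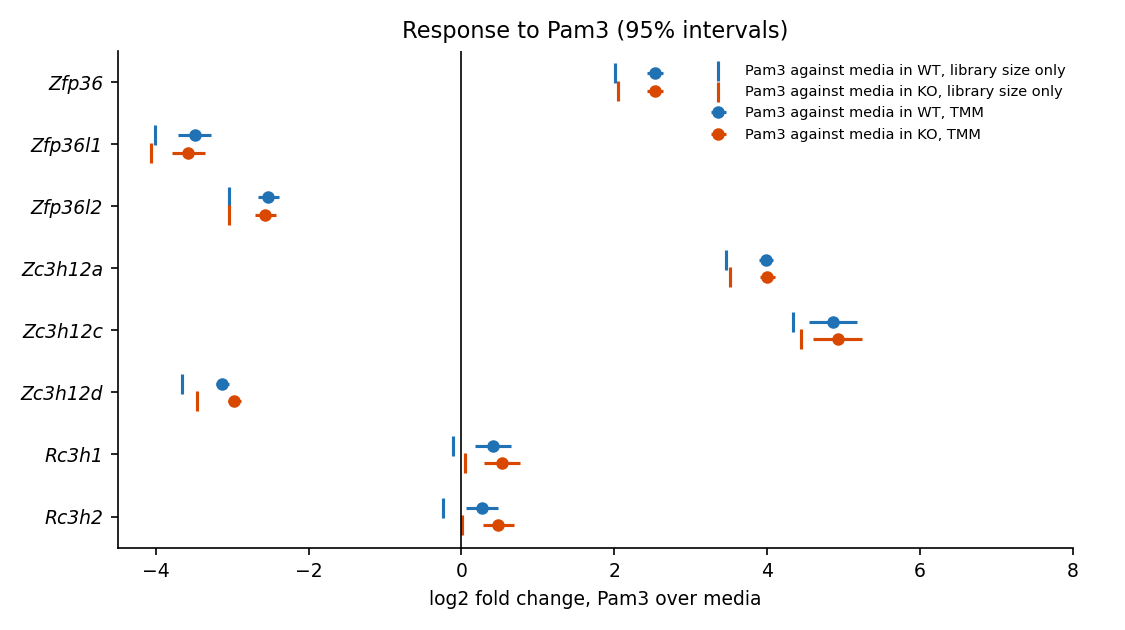
Log2 fold change of each member, Pam3 over media, in WT and KO with 95% intervals under TMM scaling (points) and the value under scaling to library size alone (ticks). The 6 tristetraprolin and regnase genes lie beyond 2 log2 units on either side under both scalings, and the roquin points lie between 0.27 and 0.53 with ticks between -0.25 and 0.05.

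The members differed little between KO and WT in media. No member was called by edgeR's quasi-likelihood test, none had an unadjusted p under 0.05, and 3.03% of all tested genes were called. DESeq2 and limma-voom also called none, with 1 member each at an unadjusted p under 0.05. An edgeR fit of the 2 groups in media alone called 0 members, with 2 at an unadjusted p under 0.05. Log2 differences, KO over WT, ran from -0.10 for Rc3h2 to 0.07 for Zc3h12d. The 95% intervals bound how large a missed change could be. They were -0.10 to 0.10 for Zfp36, -0.15 to 0.22 for Zfp36l1, -0.15 to 0.11 for Zfp36l2, -0.04 to 0.14 for Zc3h12a and -0.33 to 0.26 for Zc3h12c. For Zc3h12d the interval was -0.00 to 0.14, for Rc3h1 -0.31 to 0.17 and for Rc3h2 -0.31 to 0.11.

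After Pam3, Zc3h12d was the only member called between the genotypes, and it was higher in KO. The 6 KO libraries were at 10.2 to 11.4 CPM and the 6 WT libraries at 8.21 to 9.74 CPM, with no overlap. The difference was 1.17-fold (log2 0.23, SE 0.0434, 95% interval 0.14 to 0.32, edgeR adjusted p = 0.00202). Of all tested genes, 4.06% were called, 1.31% higher and 2.75% lower in KO, and for 0.894% all KO libraries lay above all WT libraries. Over 30 alternatives the log2 difference stayed between 0.20 and 0.27, and the call was lost only when the 2 groups were fitted without the other libraries (0.24, edgeR adjusted p = 0.0527). Summed macrophage markers were at 38416 to 45612 CPM in WT and 35927 to 37836 CPM in KO after Pam3. Summed lymphocyte markers were at 16.02 to 19.3 CPM and 13.0 to 15.5 CPM. Of the 12 macrophage markers tested, 1 was called higher and 3 lower in KO after Pam3. Of the 6 lymphocyte markers tested, 0 were called higher and 1 lower. The part of both lists in the Zc3h12d difference was not tested.

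The other 7 members were not called after Pam3. Their log2 differences ran from -0.06 for Zfp36l2 to 0.11 for Rc3h2, with 95% intervals of -0.09 to 0.10 for Zfp36, -0.27 to 0.18 for Zfp36l1, -0.20 to 0.07 for Zfp36l2 and -0.02 to 0.15 for Zc3h12a. The intervals were -0.24 to 0.29 for Zc3h12c, -0.19 to 0.29 for Rc3h1 and -0.10 to 0.32 for Rc3h2. The width of the last 3 goes with replicate 5 of WT after Pam3. Without that library Zc3h12c turned from 0.02 to -0.12 and was called lower in KO (edgeR adjusted p = 0.0485), Rc3h1 came to -0.08 and Rc3h2 to -0.01, neither called.

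No member was called in the test of the difference in Pam3 response between genotypes, for which 0.762% of all genes were called. Zc3h12d was the only member with an unadjusted p under 0.05 (edgeR's quasi-likelihood test, adjusted p = 0.214), with a response 0.16 log2 units less negative in KO (SE 0.0560, 95% interval 0.04 to 0.27). The difference called after Pam3 is therefore not shown to be absent in media. DESeq2 and limma-voom likewise called no member here, with 1 each at an unadjusted p under 0.05.

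**Figure D5:**
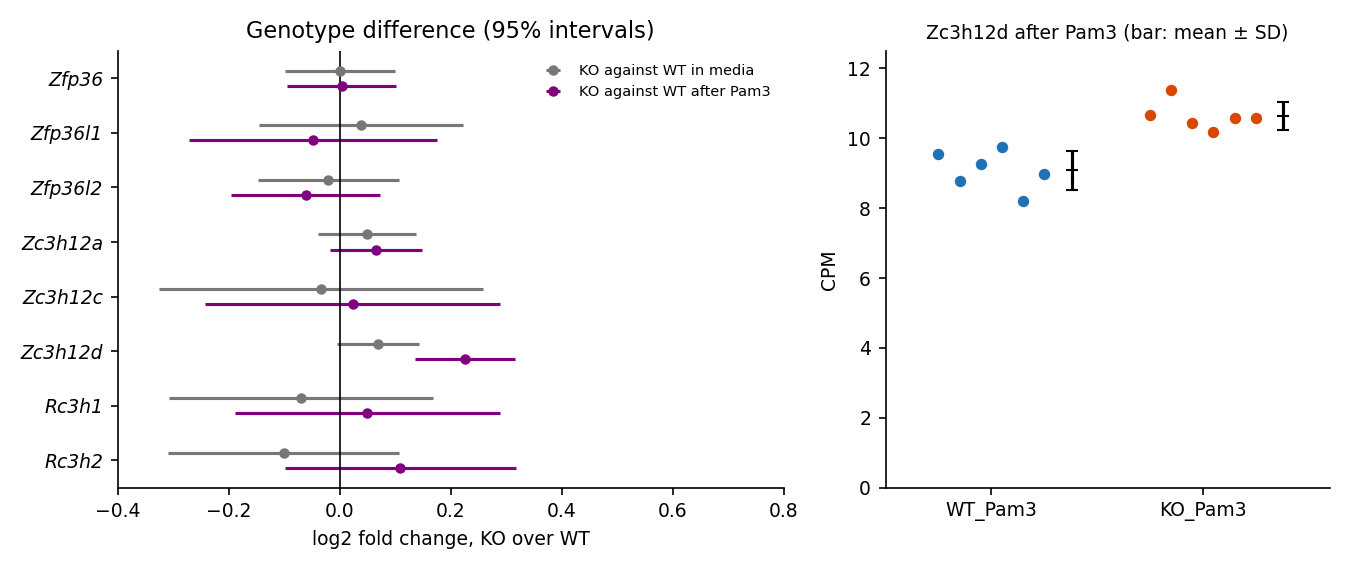
Left, log2 difference of each member, KO over WT, with its 95% interval, in media and after Pam3, with an axis from -0.4 to 0.8. Right, CPM of Zc3h12d in each library after Pam3, with mean ± SD, where the 6 KO libraries (10.2 to 11.4 CPM) lie above the 6 WT libraries (8.21 to 9.74 CPM).

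Other genes of the same decay pathways were described from lists chosen by textbook role. The 2 further paralogs, Zc3h12b and Zfp36l3, were at 0 to 11 counts and 0 to 1 counts per library and were not tested. Among 18 deadenylation genes of the CCR4-NOT and PAN complexes and their adaptors, 9 were called higher and 6 lower after Pam3 in WT, and the same numbers in KO. Over all tested genes 40.6% were called higher and 44.2% lower in WT, and 40.2% and 44.8% in KO, so the number called in this list is close to the share of all genes. The adaptors Btg2 and Btg1, which tie CCR4-NOT to mRNAs, rose by 1.47 and 1.27 on the log2 scale in WT and by 1.39 and 1.05 in KO. The deadenylases Parn and Pan2 fell by 1.05 and 1.19 in WT and by 1.19 and 1.11 in KO. The list's median was 0.19 in WT and 0.24 in KO beside -0.05 and -0.07 for all tested genes, and -0.33 and -0.24 with library size scaling, which turned the split in WT to 3 higher and 12 lower, while upper-quartile scaling gave 6 and 8. The scaffold subunit Cnot1 was not called (0.16 in WT, edgeR adjusted p = 0.233).

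Among 17 tested genes of decapping, 5′ decay and translational repression, 10 were called higher and 3 lower in WT, and 10 and 4 in KO (median 0.38 and 0.31), against 84.8% of all tested genes called in either direction in WT and 85% in KO. Dcp2, the decapping enzyme, rose by 1.59 in WT and 1.46 in KO, while Gigyf1, a partner of the cap-binding repressor encoded by Eif4e2, fell by 1.24 and 1.06. Of 14 tested exosome and helicase genes, 7 were called higher in each genotype and 3 in WT and 4 in KO lower (median 0.30 and 0.34). Exosc10 rose by 1.11 in WT and 1.07 in KO, and Exosc7 fell by 0.95 and 0.97. Upf1, the helicase partner of regnase-1, rose by 0.52 in WT and 0.60 in KO. Library size scaling turned both medians negative (-0.14 and -0.22 in WT, -0.17 and -0.14 in KO) and the splits in WT to 3 higher and 8 lower and to 2 and 7, and with it Upf1 was at 0.00 in WT and not called.

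Of 12 other proteins that bind AU-rich or stem-loop elements, 9 were called higher and 2 lower in each genotype. Their median was 0.69 in WT and 0.80 in KO, and positive under every scaling run. Of all tested genes 40.6% were called higher and 44.2% lower in WT, and 40.2% and 44.8% in KO. Library size scaling gave 6 higher and 4 lower in WT for this list, and 7 and 3 in KO. Elavl1, whose product HuR stabilises AU-rich mRNAs, rose by 1.17 and 1.254, Hnrnpd by 1.15 and 1.17, and Igf2bp2 by 2.98 and 2.96. Arid5a, whose product protects Il6 mRNA against regnase-1, differed between the genotypes. Its libraries were at 20.3 to 24.5 CPM in WT in media and 21.7 to 28.9 in KO in media, and at 58.9 to 82.4 CPM in WT after Pam3 and 50.3 to 61.0 in KO after Pam3. It was lower in KO after Pam3 (log2 -0.34, SE 0.0707, edgeR adjusted p = 0.00480), and 5 of 6 KO libraries lay below all WT libraries. Its rise was also smaller in KO by 0.46 (SE 0.102, edgeR adjusted p = 0.0264), a call that was lost in 8 of 29 alternatives, each leaving out 1 library (largest adjusted p = 0.0719).

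Among 17 kinases, phosphatases and proteases that act on these regulators, 12 were called higher and 4 lower in WT, and 13 and 3 in KO. The shares over all tested genes were 40.6% higher and 44.2% lower in WT, and 40.2% and 44.8% in KO. The list's medians of 1.18 and 1.19 stayed positive under every scaling run. With library size scaling the split was 10 higher and 7 lower in WT, and 10 and 6 in KO. Mapkapk2, whose kinase product phosphorylates tristetraprolin and restrains it, went from 315 CPM ± 9.35 to 2682 ± 105 (SD, n = 6) in WT. Malt1, whose protease product cleaves regnase-1 and the roquins in lymphocytes, rose by 4.94 on the log2 scale in WT and 5.06 in KO. Ikbke rose by 2.34 and 2.33. Dusp1, a phosphatase gene of the p38 pathway, rose by 2.90 and 2.79. None of the 66 tested genes of this list and of the deadenylation, decapping and exosome lists was called between the genotypes by edgeR. Over all tested genes 3.03% were called in media and 4.06% after Pam3, so few calls would be expected among 66 genes. Of these 66 genes, 5 were at an unadjusted p under 0.05 in media and 3 after Pam3. DESeq2 called 0 and 2 of them and limma-voom 0 in both. After Pam3 edgeR called 1 with upper-quartile scaling and 2 with library size scaling, and neither scaling gave a call in media. Without replicate 5 of WT after Pam3 edgeR called 2 in media and 5 after Pam3.

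Of 27 tested textbook targets, 24 were called higher and 2 lower in each genotype. Over all tested genes the shares were 40.6% and 44.2% in WT, and 40.2% and 44.8% in KO. The median log2 fold change of the targets was 6.14 in WT and 6.10 in KO. Tnf, bound by tristetraprolin, was at 9.06 to 12.4 CPM in WT in media and 6405 to 7871 CPM after Pam3. Il6, a target of regnase-1, had 0 to 2 counts per WT library in media and 268 to 327 CPM after Pam3. Ccl3 rose by 6.75 and 6.76 on the log2 scale, and Cxcl1 by 11.43 and 10.90. The targets that fell in WT were Icos (-2.26) and Tfrc (-0.51). Levels of the regulators and of their targets thus rose in the same libraries for Zfp36, Zc3h12a and Zc3h12c.

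Between the genotypes, where 3.03% of all tested genes were called in media, 2 targets were called higher and 2 lower in KO in media. These were Lcn2 (0.57) and Cxcl2 (0.72), and Tfrc (-0.36) and Il1a (-0.58). The summed granulocyte markers were 91.5 to 105 CPM in KO and 69.9 to 81.7 CPM in WT in media. The stromal and endothelial markers, at 64.8 to 110 CPM in KO and 52.2 to 62.0 CPM in WT, and the dendritic cell markers, at 152 to 235 CPM and 124 to 143 CPM, also did not overlap in media. Called higher in KO in media were 4 of 10 tested granulocyte markers and 6 of 10 tested stromal and endothelial markers. For the dendritic cell markers it was 1 of 7 tested (median log2 0.11), so that sum does not stand for most genes of its list. In each of these lists 0 were called lower. The part of these 3 marker lists in the differences in media was not tested. After Pam3, with 4.06% of all tested genes called, Lif was called higher in KO (0.63) and Tfrc (-0.48) and Plk2 (-0.31) lower. Tfrc, the transferrin receptor gene whose mRNA regnase-1 cleaves, was at 254 to 466 CPM in WT after Pam3 and 262 to 318 CPM in KO after Pam3, an overlap that rests on replicate 5 of WT after Pam3. The Pam3 response of Il1a was larger in KO by 0.73 (edgeR adjusted p = 0.0471). The calls of Cxcl2, Tfrc and Il1a in media were lost in 7, 9 and 19 of the 24 fits that leave out 1 library, that of Lif after Pam3 in 4, and that of the Il1a response in 20, while the Lcn2 call was lost in none. Those of Tfrc and Plk2 after Pam3 were lost when the 2 groups were fitted without the other libraries (edgeR adjusted p = 0.0759 and 0.0894).

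As a last description, the tested genes whose log2 CPM ran most alike with each member over the 24 libraries were listed. Gene models with predicted, clone or cDNA names, or without a symbol, were passed over, which left 12093 genes to compare. Pearson r was above 0.997 for every nearest gene of the tristetraprolin and regnase members. Zfp36 was followed most closely by Pim1, Slc15a3 and Tnf (r = 0.999 each), Zc3h12a by Tnip1, Tmem38b and Vasp, and Zc3h12c by Eif4g2, Klf6 and Plagl2. Among the members that fell, Zfp36l1 and Zfp36l2 were each other's nearest gene (r = 0.999), and Zc3h12d was followed by Ank, Tpcn1 and Eps8. For these 6 members 1352 to 1824 of the 12093 genes compared reached r of 0.98, since most of the variation lies between media and Pam3. Nin, which encodes the centrosomal protein ninein, was nearest to both roquin genes (r = 0.988 for Rc3h1, 0.976 for Rc3h2), and 10 genes reached 0.98 with Rc3h1 and 0 with Rc3h2. Rc3h1 was the second nearest gene of Rc3h2 (r = 0.976). All points share the 4 groups, and for the roquins also the low values of replicate 5 of WT after Pam3.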

How the data were processed

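PolyA RNA of 24 libraries was read as single-end 50 bp reads, with a kit that does not mark strand, per the labels' protocols. The submitters' processing notes name GSNAP and the build GRCm38, without versions. Per the file headers, the deposited count is the number of reads aligned uniquely to a gene model, with no normalization. The deposited RPKM values were adjusted by a size factor by the authors, per the file headers, and served here for levels between genes and shares. Gene models without a symbol (147) held 0.00387% of reads. Of 174 listed genes 173 were found, Pat1b not.

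Counts entered edgeR 4.0.16 in R 4.3.3 (TMM, filterByExpr, quasi-likelihood test, 1 mean per group, all 24 libraries in 1 fit). The biological coefficient of variation was 8.21%. Intervals use 20 residual degrees of freedom. CPM use TMM-adjusted library sizes. Alternatives were DESeq2 1.42.0, limma-voom (limma 3.58.1), upper-quartile scaling, library size only, no filter, a fit of the compared groups only, and leaving out each library. The fitting script was tested on simulated data.

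The 8 members were chosen by name, and from each list up to 4 called genes per comparison with the smallest adjusted p were named. The members, lists and tests were chosen with earlier results of these data known. Icos and Cnot1 were named after their values were seen. Motifs were searched in GENCODE M21 3′ UTRs and RefSeq promoter windows.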

Additional observations from a re-analysis of the deposited data

Results flagged for a closer look

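In 3 of the 32 combinations of a member and a group, 1 library stood apart from the other 5 by more than Dixon's 95% limit, where chance gives about 1 in 20. All 3 were the same library, replicate 5 of WT after Pam3, and in each it was the lowest. Zc3h12c was at 211 CPM there against 489 to 526 CPM in the other 5. Rc3h1 was at 55.5 CPM against 114 to 121 CPM. Rc3h2 was at 28.8 CPM against 50.5 to 57.5 CPM. These are the 3 members with the longest exons. They rank among the lower genes of that library relative to the other 5: 0.590% of tested genes were lower than Zc3h12c, 1.64% lower than Rc3h1 and 3.47% lower than Rc3h2.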

How the results depend on the processing

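Of the members' log2 values over the alternatives, 502 kept their call and direction, 681 stayed uncalled (31 of them with the other sign), 6 lost a call and 3 reversed. With library size only, Rc3h1 was -0.11 and Rc3h2 -0.25 in WT, Upf1 was -0.0025, and 3 members were called higher after Pam3 in WT and 3 in KO (5 under TMM). Upper-quartile scaling gave 3 in WT. Zc3h12c after Pam3 (KO over WT) ran from -0.12 to 0.066 without single libraries, and members called lower from 0 to 1. Fitting only the compared groups left 0 members higher in KO after Pam3.

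For all genes, KO against WT in media called 438 genes, 1112 in the fit of the compared groups, 693 by DESeq2, and 238 (without WT in media replicate 3) to 1274 (without WT after Pam3 replicate 5). After Pam3 586 were called, 366 with no filter, 177 in the fit of the compared groups, 882 by DESeq2, and 383 (without KO after Pam3 replicate 3) to 1178 (without WT after Pam3 replicate 5). The interaction called 110, 63 with no filter, 393 by DESeq2, and 28 (without WT in media replicate 3) to 544 (without WT after Pam3 replicate 5). The cause was not tested.

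Counts in place of RPKM, which drop the length correction, gave shares of 33.1% for Zfp36 in WT in media, of 22.2% (WT) and 22.2% (KO) in media and 49.0% and 48.8% after Pam3 for Zc3h12a, of 64.9% and 65.7% in media for Zc3h12d, and of 66.2%, 66.7%, 68.2% and 67.4% for Rc3h1 in WT in media, KO in media, WT after Pam3 and KO after Pam3. RPKM rescaled to GENCODE M21 lengths, chosen after seeing the data, gave Rc3h1 77.3%, 77.6%, 78.8% and 78.2% in the same order. Depth bears on Zc3h12d after Pam3, which had 227 to 361 counts per library: counting error alone is 5.26% to 6.64% of a library's value, beside an SD between libraries of 6.13% of the mean in WT and 3.76% in KO.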
